A study of Homo sapiens with 8 samples.

Results

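The genes of DNA replication and nucleotide supply were followed as a set of 38 messenger RNAs, chosen by gene symbol from 23346 listed genes in 8 RNA-seq libraries of hCMEC/D3. The set holds the licensing factors, the replicative helicase and its activators, the replicative polymerases and primase, the sliding clamp and its loader, the single-strand binding complex, the enzymes that finish lagging-strand fragments, and the enzymes that make deoxynucleotides. All 38 were detected, reaching 1 CPM, a unit that corrects counts for how deeply each library was sequenced, in each of the 8 libraries, as were 11980 of the 23346 genes. hCMEC/D3 is a human endothelial line derived from the small vessels of the brain, immortalised so that it keeps dividing and used to model the blood-brain barrier. As a single line it carries 1 genetic background. The 8 samples form 1 group of replicates with no treatment named, whose polyadenylated RNA went into libraries by the TruSeq RNA Sample Prep Kit v2. The labels give no passage, density, culture date or other condition, and they do not say whether the replicates were separate cultures, so every p-value measures only the spread between these 8 samples, which may be technical.

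As background, replication starts in G1 phase, when the origin recognition complex with CDC6 and CDT1 loads a ring of MCM2 to MCM7 onto DNA, and geminin (GMNN) later blocks CDT1 so that an origin is used once per cycle. In S phase CDC45 and the GINS complex join the ring to make the active helicase. Polymerase alpha-primase then lays primers, polymerases epsilon and delta extend the new strands on the PCNA clamp, and ribonucleotide reductase and thymidylate synthase supply deoxynucleotides. Transcription of many of these genes is known to be driven by E2F factors and restrained by the retinoblastoma family.

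Levels between genes were compared per transcript length, as RPKM (CPM divided by transcript length in kilobases) computed from the deposited counts, and also on the authors' values from conditional quantile normalisation (CQN), which are on a log2 scale and adjusted by that method for length and GC content. Each library held 34694272 to 45102622 read pairs, and the 38 genes took between 0.490% (replicate 6, 95% Wilson interval 0.488 to 0.493) and 0.567% (replicate 2, 0.564 to 0.569) of them. The lowest member count in any library was 878 read pairs, for POLE2, where counting error alone gives a coefficient of variation (CV) of 3.37%. Replicates 2, 7 and 8 stood apart from the other 5 libraries: with each doubling of transcript length a gene's level relative to its mean over libraries fell by 0.22, 0.11 and 0.34 on the log2 scale in these libraries, and rose by 0.09 to 0.15 in the other 5. All 8 of 8 endothelial markers were detected, with a summed level of 2147 to 4166 CPM, and none of 4 epithelial and 3 astrocyte markers was, with GFAP, AQP4 and SLC1A2 together at 0.731 to 0.950 CPM and AQP4 at 0 counts in all 8 libraries. Of the mural, fibroblast, leukocyte and neuron markers, 4 of 6, 2 of 5, 1 of 4 and 1 of 3 were detected. In a bulk sample fewer cells in S phase and less RNA per cell cannot be told apart.

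The promoters of these genes are shown first because they are where E2F factors are known to act on this pathway. In RefSeq's table of promoters for GRCh38.p14, 32 of the 38 members had an entry, with 41 windows of 250 bases ahead of a transcript start, and each window matched GRCh37 exactly at 1 place. MCM4, MCM5, POLD3, GINS4, RPA2 and RPA3 had none. An E2F-type site, TTTCCCGC or TTTGGCGC on either strand, lay in the windows of 12 of 32 members (37.5%), against 2.36% of 27305 genes in the table and 4.07% of 8607 detected genes with an entry. The 12 were CDT1, GINS2, GMNN, LIG1, MCM3, MCM6, MCM7, PCNA, POLA1, POLE, RFC3 and TYMS, and MCM6 had 2 sites. A second E2F pattern was also searched, TTCCCGCC or TTGGCGCC on either strand, which is not marked in the lines below. It was in the windows of 11 members (34.4%), 4.33% of all genes and 7.58% of detected genes. PRIM1, RFC4, RPA1 and RRM1 had this pattern and were not among the 12. A CCAAT box on either strand was in the windows of 19 members (59.4%), 37% of all genes and 42% of detected genes. TTTGAA, the cell cycle genes homology region (CHR) known from late cell-cycle genes, was in the windows of 1 member (RRM1), 16.1% of all genes and 11.9% of detected genes. TATAAA on the sense strand was in those of 1 member (GINS3), 8.38% of all genes and 4.54% of detected genes. The median GC content was 68.0% over the members' windows and 58.0% over all 35116 windows, and its part in these shares was not tested. A match here is a description of letters and shows no binding. The whole windows of MCM6 and PCNA, which end next to the deposited gene start, and the surroundings of the sites in one or more members of most roles are given 5′ to 3′ on the gene's strand, with GRCh37 positions and the sites in capitals.
MCM6, chr2:136634014-136634263, minus strand: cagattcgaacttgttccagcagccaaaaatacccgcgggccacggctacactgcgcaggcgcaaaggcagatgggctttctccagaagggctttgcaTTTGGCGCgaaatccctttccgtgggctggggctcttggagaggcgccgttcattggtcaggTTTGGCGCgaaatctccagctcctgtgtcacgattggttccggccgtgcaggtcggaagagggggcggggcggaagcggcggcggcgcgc
PCNA, chr20:5107269-5107518, minus strand: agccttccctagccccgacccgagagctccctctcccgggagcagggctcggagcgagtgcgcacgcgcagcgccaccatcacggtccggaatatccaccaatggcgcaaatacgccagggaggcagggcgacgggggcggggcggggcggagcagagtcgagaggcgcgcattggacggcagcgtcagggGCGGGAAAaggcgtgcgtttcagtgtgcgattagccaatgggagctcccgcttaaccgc
CDT1, chr16:88870152-88870179, plus strand: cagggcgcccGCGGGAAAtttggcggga
GMNN, chr6:24775551-24775578, plus strand: ctgggtcggtTTTGGCGCgctctcactt
MCM3, chr6:52149697-52149724, minus strand: ggatggtacgTTTCCCGCcaccgcgggg
MCM7, chr7:99699190-99699217, minus strand: agctcggaccGCGGGAAAcccggcgcct
GINS2, chr16:85722574-85722601, minus strand: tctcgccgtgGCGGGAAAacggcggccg
POLA1, chrX:24711888-24711915, plus strand: tcatcacaggGCGCCAAAcgcgcgtccg
LIG1, chr19:48673698-48673725, minus strand: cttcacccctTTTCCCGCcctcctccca

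The sites in these lines lie in factors that act at different steps, from licensing (CDT1, GMNN) to ligation (LIG1), and their first bases are 31 to 187 bases ahead of the RefSeq transcript start. GCGGGAAA and GCGCCAAA are the same sites read on the other strand. For GMNN and MCM7 the RefSeq start lies inside the deposited gene span and so does the site, and the GINS2 line crosses the deposited gene start.

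Across the set, mean levels ran from 10.6 ± 2.62 RPKM (SD, n = 8) for POLA1 to 243 ± 48.2 RPKM for PCNA. The median of the 38 mean levels was 34.6 RPKM, beside 11.3 RPKM over 11591 detected genes with a length. Of the 38, 37 lay above that second median, 24 in the top 25% and 11 in the top 10% of those genes. POLA1 was the 1 member below it.

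**Figure D1:**
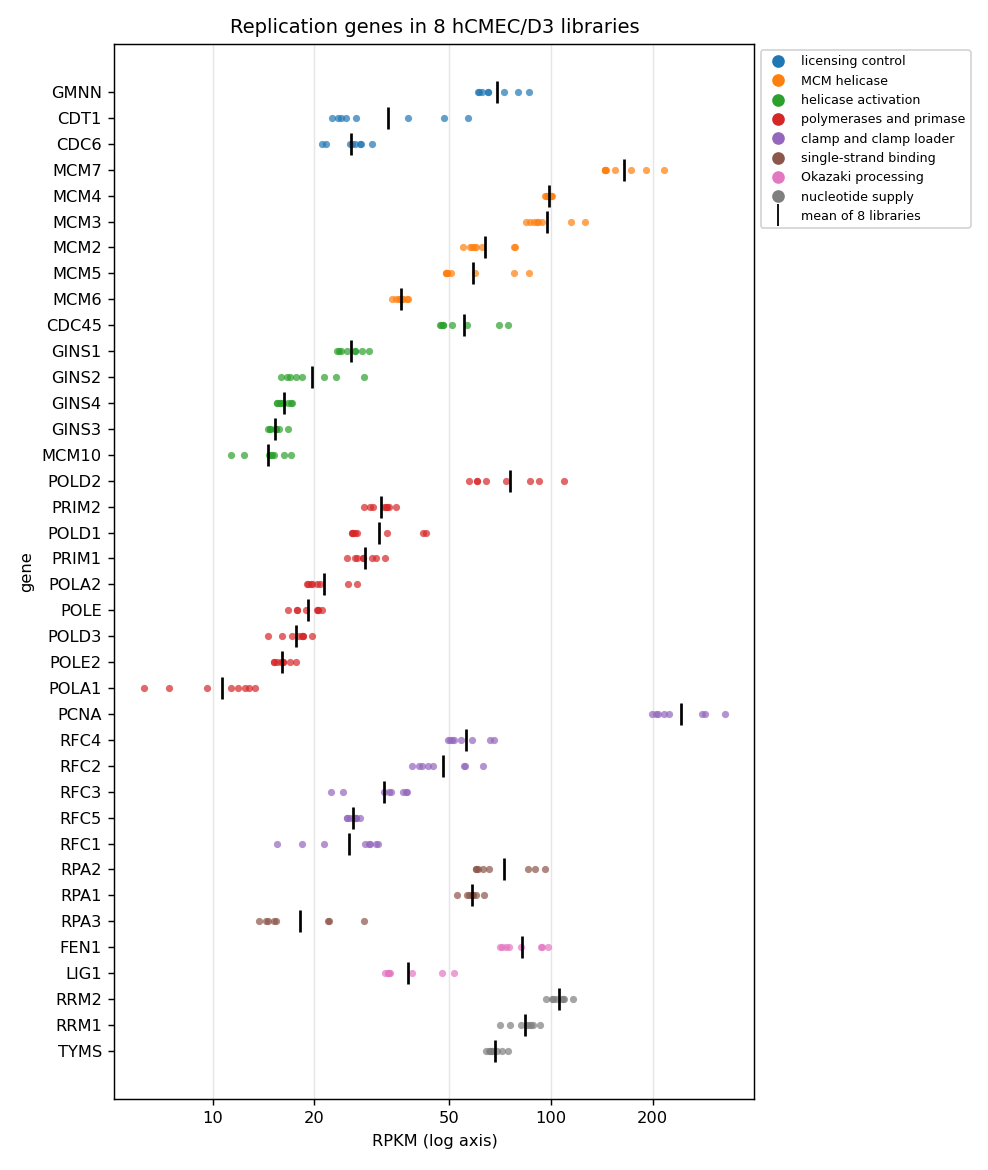
Level of each of the 38 genes in RPKM on a log axis, grouped by role, with 1 point per library and a black tick at the mean of the 8 libraries. PCNA and MCM7 are the highest at mean levels of 243 and 164 RPKM, and POLA1 the lowest at 10.6 RPKM.

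The 3 licensing regulators lay within a narrow range of read abundance but differed in how they varied. CDT1 (chr16:88870186-88875666 in GRCh37, plus strand, 10 exons), which loads the MCM ring, had the largest CV of the set, 40.1%. Its level in replicates 1 to 8 was 59.9, 129, 62.6, 66.2, 70.6, 63.7, 101 and 152 CPM. The 3 high values are those of replicates 2, 7 and 8, and the other 5 libraries stayed between 59.9 and 70.6 CPM. On the CQN scale the same libraries were highest, at 7.64, 7.62 and 7.76 against 7.32 to 7.44 in the other 5, but the whole span shrank from 2.54-fold to 1.35-fold. Geminin, the inhibitor of CDT1, was at 79.1, 92.0, 82.5, 77.2, 82.3, 76.8, 109 and 101 CPM, highest in replicate 7. CDC6, the loader's ATPase partner, was at 121, 98.7, 126, 116, 135, 118, 124 and 96.3 CPM. Its 2 lowest libraries were replicates 8 and 2, where CDT1 was highest, but replicate 7 was not low. On CQN replicate 8 was again the lowest for CDC6, at 7.44, with replicate 2 at 7.47. Replicate 7, at 7.665, was second only to replicate 5, at 7.70. Within a library, the GMNN to CDT1 level ratio in RPKM was 1.14 ± 0.39 on the log2 scale (SD, n = 8), above 0 in 8 of 8 libraries (two-sided exact sign-flip permutation test, adjusted p = 0.0103 over 29 pairs), but on CQN it was -0.01 ± 0.14, so no order between geminin and CDT1 held on both scales. CDC6 against CDT1 was at -0.29 ± 0.66 in RPKM and 0.05 ± 0.20 on CQN (exact permutation test, adjusted p = 0.348 and 0.510).

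The 6 subunits of the MCM ring, which stand in equal number in the assembled helicase, had unequal transcript levels in a nearly fixed order. MCM7 was highest and MCM6 lowest in 8 of 8 libraries on both scales, 4.56-fold apart in mean RPKM and 3.48-fold apart on CQN. MCM7 (chr7:99690404-99699427, minus strand, 15 exons) had 357, 471, 358, 359, 382, 356, 425 and 535 CPM and a mean of 164 ± 27.1 RPKM. MCM6 (chr2:136597196-136634011, minus strand, 17 exons) had 142, 134, 141, 131, 136, 134, 128 and 137 CPM and a mean of 36.1 ± 1.27 RPKM. So in CPM MCM7 was raised in replicates 2, 7 and 8 while MCM6 was nearly flat. On CQN MCM7 was the flatter, with an SD of 0.06 and a 1.15-fold span. MCM6 had an SD of 0.18 and a 1.40-fold span there, and was highest in replicates 8 and 2. In CPM MCM4 was the least variable of all 38 genes, with a CV of 1.66%. Its 8 values were 408, 407, 402, 393, 399, 391, 408 and 399 CPM, which do not set replicates 2, 7 and 8 apart. MCM2, whose values were 203, 268, 199, 201, 206, 189, 216 and 269 CPM, was highest in replicates 8 and 2. MCM3, at 282, 351, 274, 266, 289, 259, 279 and 387 CPM, was highest in the same 2 libraries. MCM5 repeated this with a span that was wider in CPM, at 176, 270.0, 169, 170.1, 169.7, 171, 206 and 298 CPM. On CQN replicates 8 and 2 were again the highest for each of MCM2, MCM3 and MCM5. The spans there were 1.11-fold for MCM2, 1.38-fold for MCM3 and 1.10-fold for MCM5.

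Between the extremes of the ring, neighbours in the order could not always be separated. MCM4 and MCM3 had mean levels of 98.7 ± 1.64 and 97.2 ± 14.9 RPKM, and their log2 ratio was 0.03 ± 0.20 in RPKM and -0.02 ± 0.09 on CQN, within the spread between libraries on both scales. MCM2 (63.7 ± 9.17 RPKM) and MCM5 (58.9 ± 14.9 RPKM) were not separated in RPKM, with a log2 ratio of MCM5 to MCM2 of -0.14 ± 0.15 (exact permutation test, adjusted p = 0.0523), and on CQN MCM5 was the higher by 0.23 ± 0.04 in 8 of 8 libraries. In RPKM the ratio of MCM3 to MCM2 had the smallest SD of the 29 pairs, 0.61 ± 0.05, although the genes themselves had SDs of 0.21 and 0.20 on the same log2 scale. On CQN it was 0.60 ± 0.12, and other pairs, MCM5/MCM2 among them, had smaller SDs. MCM7 exceeded MCM2 by 1.36 ± 0.07 in RPKM (0.93 ± 0.06 on CQN) and MCM6 was below MCM2 by a log2 ratio of -0.81 ± 0.20, each in 8 of 8 libraries (exact permutation test, adjusted p = 0.0103). A two-sided sign-flip test over 8 libraries cannot give an unadjusted p below 0.00781, which adjusts to 0.0103 here.

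**Figure D2:**
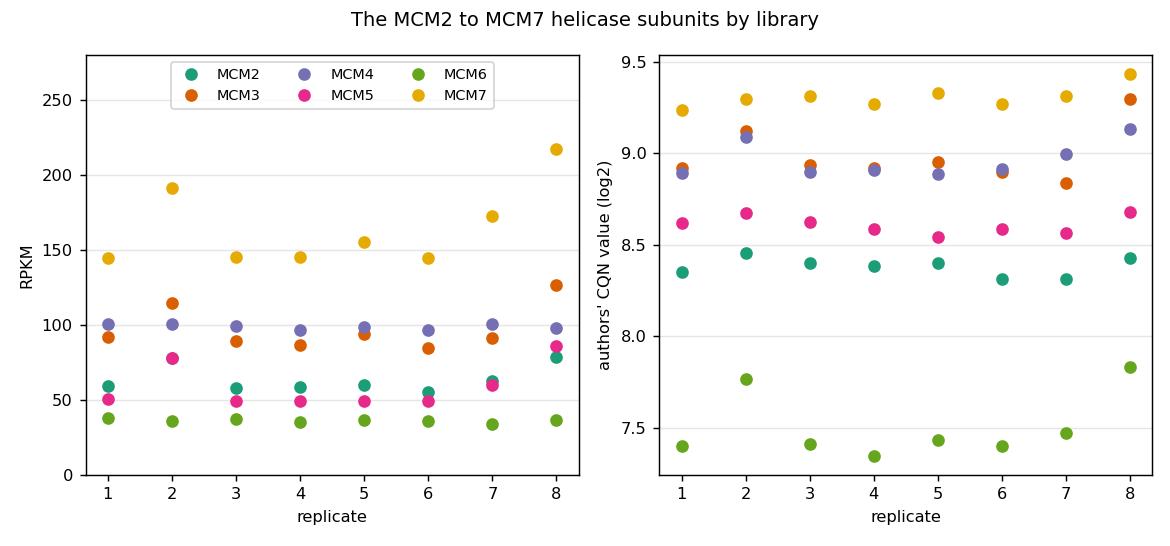
Level of the 6 MCM ring genes in each library (replicates 1 to 8 on the horizontal axis), in RPKM on an axis from 0 at the left and as the authors' CQN values (log2) at the right, with 1 point per gene and library. MCM7 is the highest and MCM6 the lowest in 8 of 8 libraries on both scales, while in RPKM MCM3 lies above MCM4 and MCM5 above MCM2 in replicates 2 and 8 and below them in the other 6.

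The helicase activators were lower than most of the ring they join. CDC45, which binds the ring at origin firing, averaged 55.3 ± 11.1 RPKM and was below MCM2 by a log2 ratio of -0.21 ± 0.09 in RPKM and -0.64 ± 0.08 on CQN, in 8 of 8 libraries on each. MCM10, which acts at the step that starts DNA unwinding, averaged 14.6 ± 1.89 RPKM and was below MCM2 by -2.12 ± 0.38 in 8 of 8. GINS1, which had the highest mean transcript level of the 4-protein GINS complex, averaged 25.6 ± 2.02 RPKM, GINS2 19.7 ± 4.18, GINS4 16.2 ± 0.687 and GINS3 15.3 ± 0.688. The order of these 4 means was the same on CQN, and GINS1 was highest in 7 of 8 libraries. GINS3 and GINS4 were below GINS1 in 8 of 8 libraries, by log2 ratios of -0.74 ± 0.12 and -0.65 ± 0.10 (exact permutation test, adjusted p = 0.0103). GINS2 was below GINS1 in 7 of 8, by -0.40 ± 0.22 (exact permutation test, adjusted p = 0.0197), and by -0.23 ± 0.27 on CQN. Over libraries GINS3 and GINS4 had CVs of 4.49% and 4.23% in CPM, and GINS2 21.2%. The lowest, median and highest values of GINS2 were 41.9, 47.2 and 73.6 CPM, with the highest in replicate 8. MCM10 had its lowest value, 51.7 CPM, in that library, and CDC45 its highest, 140.3 CPM. On CQN MCM10 was at 6.34 in replicate 8, beside a mean of 6.32, and was lowest in replicate 1, at 6.14. CDC45 was highest on CQN in replicates 2 and 8, at 7.91 in each. On CQN GINS2 was the flattest of the 4 GINS genes, with an SD of 0.04 beside 0.07 for GINS3, 0.14 for GINS4 and 0.26 for GINS1. Its highest library on that scale was replicate 6.

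In polymerases alpha and delta the transcript of the catalytic polymerase chain was not the most abundant one. POLD2, the accessory subunit that ties the catalytic subunit of polymerase delta to the rest, averaged 75.6 ± 18.8 RPKM, POLD1, the catalytic subunit, 31.0 ± 7.37 RPKM, and POLD3, which binds PCNA, 17.6 ± 1.60 RPKM. This order held in 8 of 8 libraries on both scales, with POLD2 above POLD1 by a log2 ratio of 1.28 ± 0.13 and POLD3 below it by -0.79 ± 0.44 in RPKM (exact permutation test, adjusted p = 0.0103 for each). On CQN these ratios were 0.38 ± 0.13 and -1.002 ± 0.09, and without a length correction POLD2 was above POLD1 by 0.19. POLA1, the catalytic subunit of polymerase alpha (chrX:24712064-25015102, plus strand, 37 exons), was the lowest of the 4 chains of polymerase alpha-primase in 8 of 8 libraries on both scales, with a lowest, median and highest value of 34.3, 63.6 and 73.2 CPM. The low values were those of replicates 8 and 2, at 34.3 and 40.8 CPM, and replicate 7 had 52.9 CPM. The other chains were at 21.3 ± 2.94 RPKM for the regulatory subunit POLA2, 28.3 ± 2.36 RPKM for the catalytic primase subunit PRIM1, and 31.5 ± 2.35 RPKM for PRIM2, the large primase subunit. PRIM2 against PRIM1 was 0.16 ± 0.18 in RPKM (exact permutation test, adjusted p = 0.0671), so the pair of primase chains was not separated on that scale, and 0.34 ± 0.09 on CQN with 8 of 8 libraries above 0. POLE, the leading-strand catalytic subunit, averaged 19.2 ± 1.63 RPKM with values of 131 to 165 CPM, and its partner POLE2 averaged 16.1 ± 0.850 RPKM with values of 25.6 to 29.9 CPM. POLE2 was below POLE in 7 of 8 libraries, by -0.25 ± 0.18 in RPKM (exact permutation test, adjusted p = 0.0272), with a CQN ratio of -1.40 ± 0.13 in 8 of 8. The RPKM call for this pair did not hold when any 1 of replicates 1 to 6 was left out (exact permutation test, adjusted p of 0.0523 to 0.0544). POLE was below POLD1 by -0.66 ± 0.43 in 8 of 8.

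PCNA, the sliding clamp (chr20:5095599-5107268, minus strand, 6 exons), was the most abundant member per length, at the 98.0th percentile of detected genes. Its values were 276, 366, 265, 261, 285, 255, 357 and 419 CPM, with replicates 2, 7 and 8 above the other 5 libraries. RFC1, the large subunit of the clamp loader, showed the opposite pattern, at 75.6, 89.2 and 104 CPM in replicates 8, 2 and 7 and 137 to 150.5 CPM in the other 5. The log2 ratio of PCNA to RFC1 was 2.77 to 2.94 in those 5 libraries and 3.71 to 4.39 in replicates 2, 7 and 8, and its mean was 3.27 ± 0.65 (exact permutation test, adjusted p = 0.0103). On CQN this ratio was 2.33 ± 0.24. The 4 small loader subunits had means of 56.1 ± 7.22 RPKM for RFC4, 47.9 ± 8.82 for RFC2, 32.1 ± 5.83 for RFC3 and 26.1 ± 0.823 for RFC5, beside 25.4 ± 6.03 for RFC1. RFC4 was highest of the 5 in 8 of 8 libraries in RPKM, but RFC2 had the highest mean on CQN. The order of RFC1 within the complex depended on the scale: RFC3 was above it by 0.36 ± 0.22 in RPKM and below it by -0.21 ± 0.16 on CQN, and RFC5 stood at 0.08 ± 0.34 in RPKM (exact permutation test, adjusted p = 0.539) and at -0.36 ± 0.13 on CQN. By CV in CPM, RFC5 was the second least variable member, at 3.16% with values of 52.4 to 57.3 CPM.

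RPA, the trimer that coats single-stranded DNA, had the widest span of any complex on CQN, 4.84-fold. RPA3, its smallest subunit, was lowest in 8 of 8 libraries on both scales, at 18.2 ± 5.22 RPKM, beside 58.3 ± 3.06 RPKM for the large subunit RPA1 and 72.7 ± 15.1 RPKM for RPA2. The ratio of RPA3 to RPA1 was -1.72 ± 0.42 on the log2 scale (exact permutation test, adjusted p = 0.0103). RPA1 and RPA2 changed places with the scale: RPA2 was above RPA1 by 0.29 ± 0.32 in RPKM in 8 of 8 libraries and below it by -0.61 ± 0.14 on CQN in 8 of 8. RPA3 was at 56.6, 44.7 and 44.2 CPM in replicates 8, 7 and 2 and at 27.7 to 31.0 CPM in the other 5. It overlaps another listed gene and has 2 named pseudogenes, so its count is uncertain. On the lagging strand, FEN1, the flap nuclease, averaged 82.3 ± 11.3 RPKM and LIG1, the ligase that seals the fragments, 37.9 ± 7.68 RPKM. FEN1 was the higher by 1.13 ± 0.13 in 8 of 8 libraries (exact permutation test, adjusted p = 0.0103), and by 0.77 ± 0.10 on CQN.

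The nucleotide enzymes had mean levels of 68.2 to 106 RPKM, above the set's median, and CVs of 5.15% to 8.69% in CPM. On CQN their median SD was 0.12, beside 0.10 for all members, and that of TYMS was 0.16. RRM1, the large subunit of ribonucleotide reductase, was at 275, 237, 278, 272, 292, 257, 268 and 223 CPM. RRM2, the small subunit with the radical site that is made and destroyed with each cycle (chr2:10262695-10271546, plus strand, 10 exons), was at 353, 329, 355, 331, 379, 337, 357 and 316 CPM. In CPM both had their highest value in replicate 5 and their lowest in replicate 8. On CQN replicate 8 was the lowest for neither. RRM1 was there lowest in replicate 1, at 8.61, and highest in replicate 5, at 8.82. RRM2 was lowest in replicate 4, at 8.88, and highest in replicate 2, at 9.18, with replicate 8 at 9.14. RRM2 was above RRM1 by 0.34 ± 0.07 in RPKM and 0.32 ± 0.09 on CQN, in 8 of 8 libraries on each scale (exact permutation test, adjusted p = 0.0103 and 0.00906). Thymidylate synthase, TYMS, which makes dTMP from dUMP, was at 111, 121, 106, 106, 108, 104, 108 and 116 CPM, a CV of 5.15%. On CQN its values were 8.02, 7.84, 8.01, 8.03, 7.93, 8.01, 7.71 and 7.62. Replicates 2 and 8 were thus the 2 highest libraries for TYMS in CPM, and replicates 8 and 7 the 2 lowest on CQN. TYMS was below RRM1 by -0.29 ± 0.19 in RPKM (exact permutation test, adjusted p = 0.0272) and by -0.81 ± 0.20 on CQN, and the RPKM call did not hold when any 1 of replicates 1 and 3 to 7 was left out (exact permutation test, adjusted p = 0.0544).

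In all, 29 pairs of members were compared within libraries. The ratio differed from 0 at an adjusted p under 0.05 in 25 of them (14 with the first gene of the pair higher, 11 lower), and 22 had the same sign in 8 of 8 libraries. In 6 pairs the mean ratio had the opposite sign on CQN, namely MCM5/MCM2, CDC6/CDT1, GMNN/CDT1, RFC3/RFC1, RFC5/RFC1 and RPA2/RPA1. In 8 pairs the ratio varied less over libraries than either gene alone. These counts are not set beside those of other gene pairs, so they describe these 29 pairs and do not set replication genes apart.

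**Figure D3:**
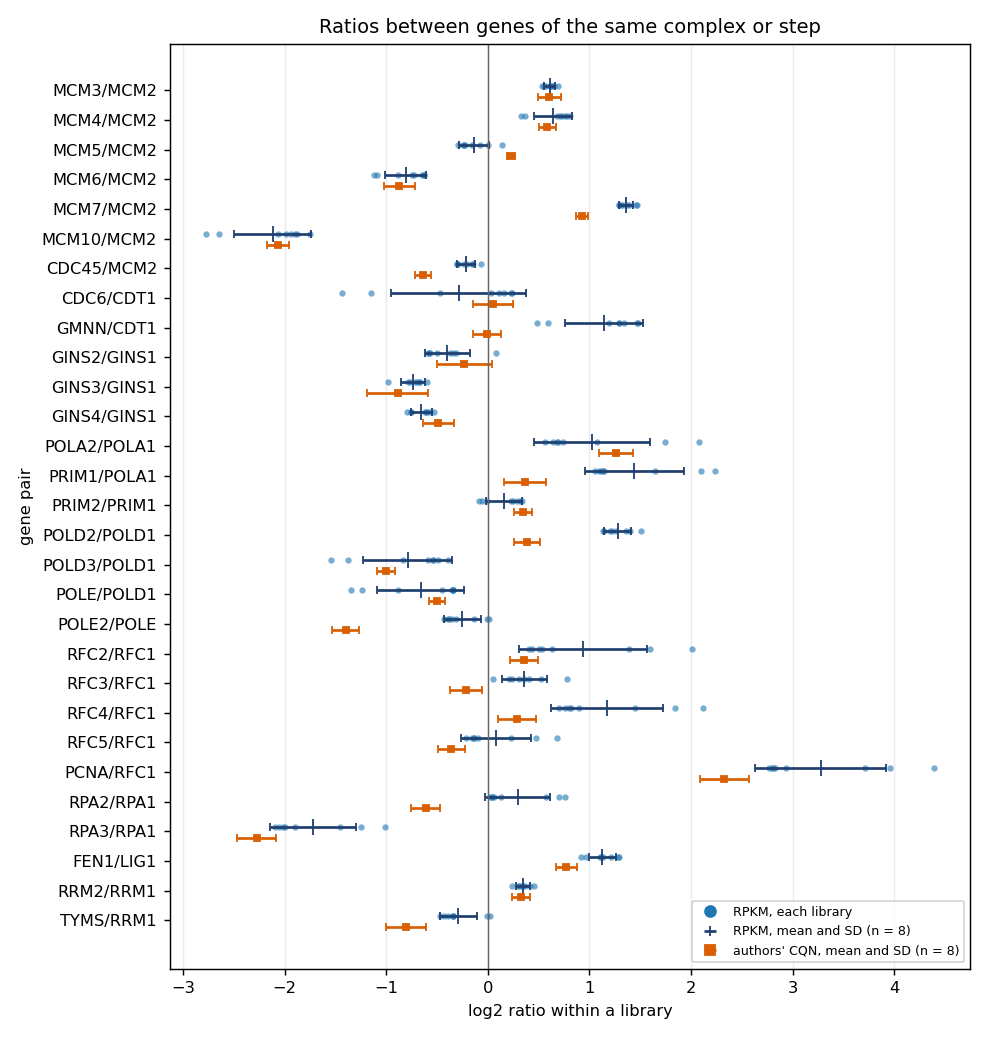
Log2 ratio of 29 pairs of members within a library, with 1 blue point per library, the mean and SD (n = 8) on log2(RPKM + 0.1) in dark blue, and the mean and SD on the authors' CQN values in orange. Points to the right of 0 mean that the first gene of the pair was higher. In RPKM the PCNA/RFC1 ratio is the largest at a mean of 3.27, and the MCM3/MCM2 ratio has the smallest SD, 0.05, which on CQN is 0.12.

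Whether any member varied more than a gene of its abundance was asked with edgeR's goodness-of-fit test around the trended dispersion, over all 11980 detected genes. None of the 38 members passed (adjusted p under 0.05), while 4.66% of all detected genes did. At the unadjusted level of 0.05 it was 1 member, CDT1, and 13.1% of all genes. The edgeR adjusted p of CDT1 was 0.154. CDT1 passed when the dispersion trend came from DESeq2 (adjusted p = 2.22e-04), where 23.5% of all genes passed, and when each library's trend on length was removed (edgeR adjusted p = 0.0486, 5.31% of all genes), but its edgeR adjusted p was 1 when the trend on GC content was removed as well (6.79% of all genes). The median SD of log2(CPM + 1) over libraries was 0.19 for the members and 0.25 for all detected genes, and on CQN 0.10 and 0.16. Without replicates 2, 7 and 8 the same medians were 0.05 and 0.09 in CPM. CDT1, POLA1 and RPA3 spanned more than 2-fold between their lowest and highest library, which is 3 of 38 members beside 31.0% of all detected genes. On CQN the spans of GINS1 (1.54-fold) and RPA3 (1.52-fold) exceeded 1.5-fold, which is 2 of 38 beside 34.8%. Unlike the goodness-of-fit test, these SDs and spans were not matched for abundance, and 37 of the 38 members lay above the median RPKM of detected genes. The part of abundance in the smaller SDs and spans was not tested.

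Members differed in the direction in which replicate 8 departed from the other libraries. It was the highest library for 18 of 38 members and the lowest for 10, beside 36% and 31.1% of all detected genes. The 18 included MCM2, MCM3, MCM5, MCM7, PCNA, CDC45, CDT1, POLD1, POLD2, FEN1 and LIG1, and the 10 were MCM10, RFC1, RFC3, POLA1, POLD3, POLE, PRIM2, CDC6, RRM1 and RRM2. Subunits of the same complex stood on opposite sides: replicate 8 differed from the gene's mean by -0.71 for POLA1 and 0.33 for POLA2, and by -0.66 for RFC1 and 0.41 for RFC2, on the log2(CPM + 1) scale.

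**Figure D4:**
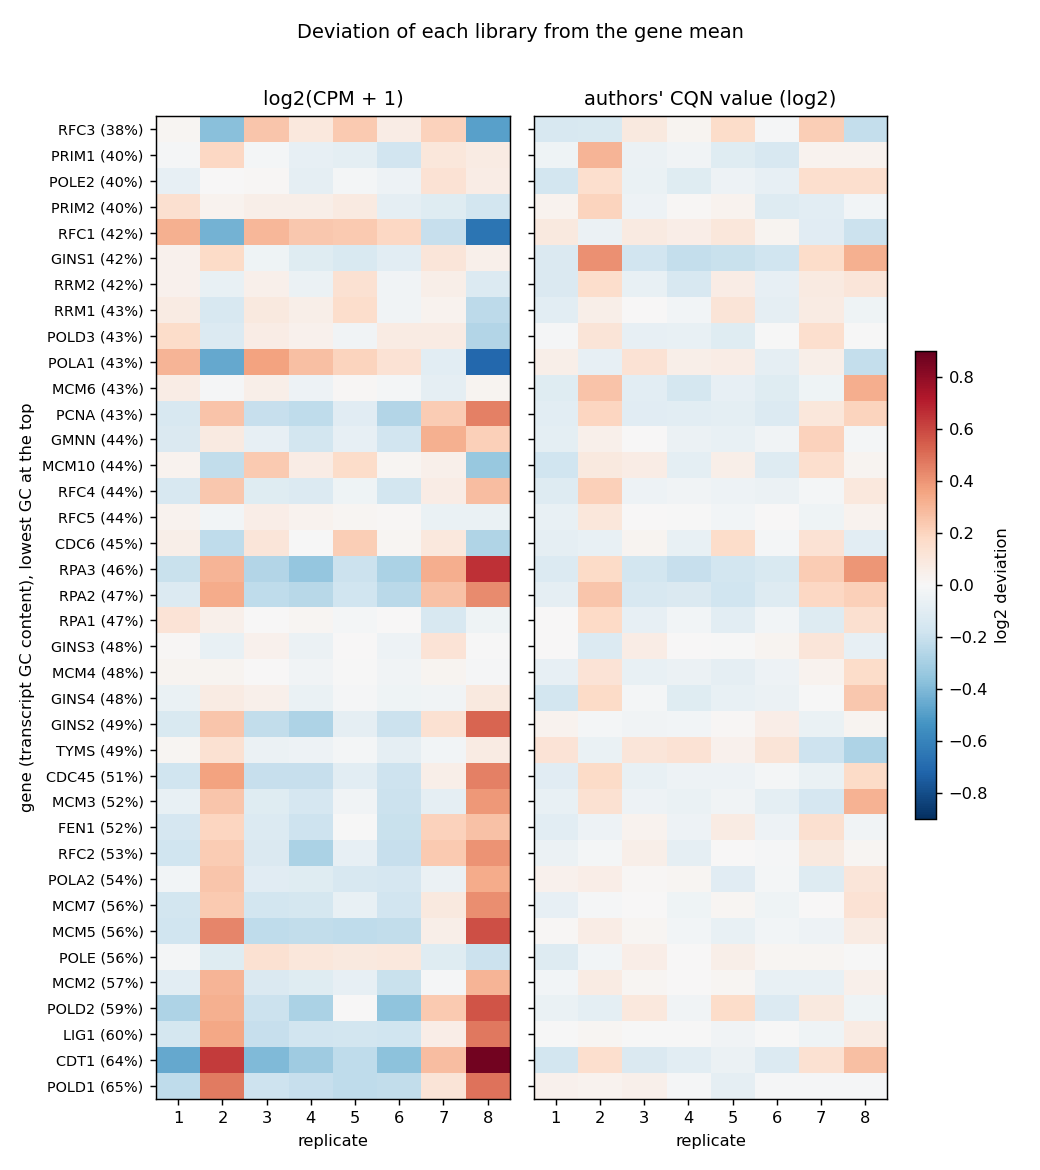
Difference of each library (columns, replicates 1 to 8) from the gene's mean over libraries for the 38 genes (rows, ordered by transcript GC content with the lowest at the top), on log2(CPM + 1) at the left and on the authors' CQN values at the right, with colour giving the log2 difference. In CPM, replicate 8 holds both the highest (CDT1, 0.87) and the lowest (POLA1, -0.71) difference, and the CQN panel is paler.

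The side a member took went with the base composition and length of its transcript. In the 17 members with a transcript GC content under 45% the median difference of replicate 8 was -0.12, in the 13 with 45% to 55% it was 0.33, and in the 8 above 55% it was 0.48. Over all detected genes with a length the same classes had -0.30, 0.06 and 0.45. None of the 7 members with a transcript of 4000 nt or more was above its mean in replicate 8 (median -0.27), whereas 14 of the 20 from 2000 to under 4000 nt (median 0.29) and 10 of the 11 under 2000 nt (median 0.28) were. Below 4000 nt the members' medians thus showed no trend with length, while over all detected genes with a length the medians of the long, middle and short classes were -0.35, 0.11 and 0.50. These class bounds were chosen after the values had been seen. Across the 38 genes, which share the same libraries, Pearson's r between GC content and the difference was 0.66, and between log2 length and the difference -0.45, beside 0.58 and -0.63 across 11591 genes. On CQN these were 0.12 and -0.06 for the members. Genes are not independent replicates, and no p is given.

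**Figure D5:**
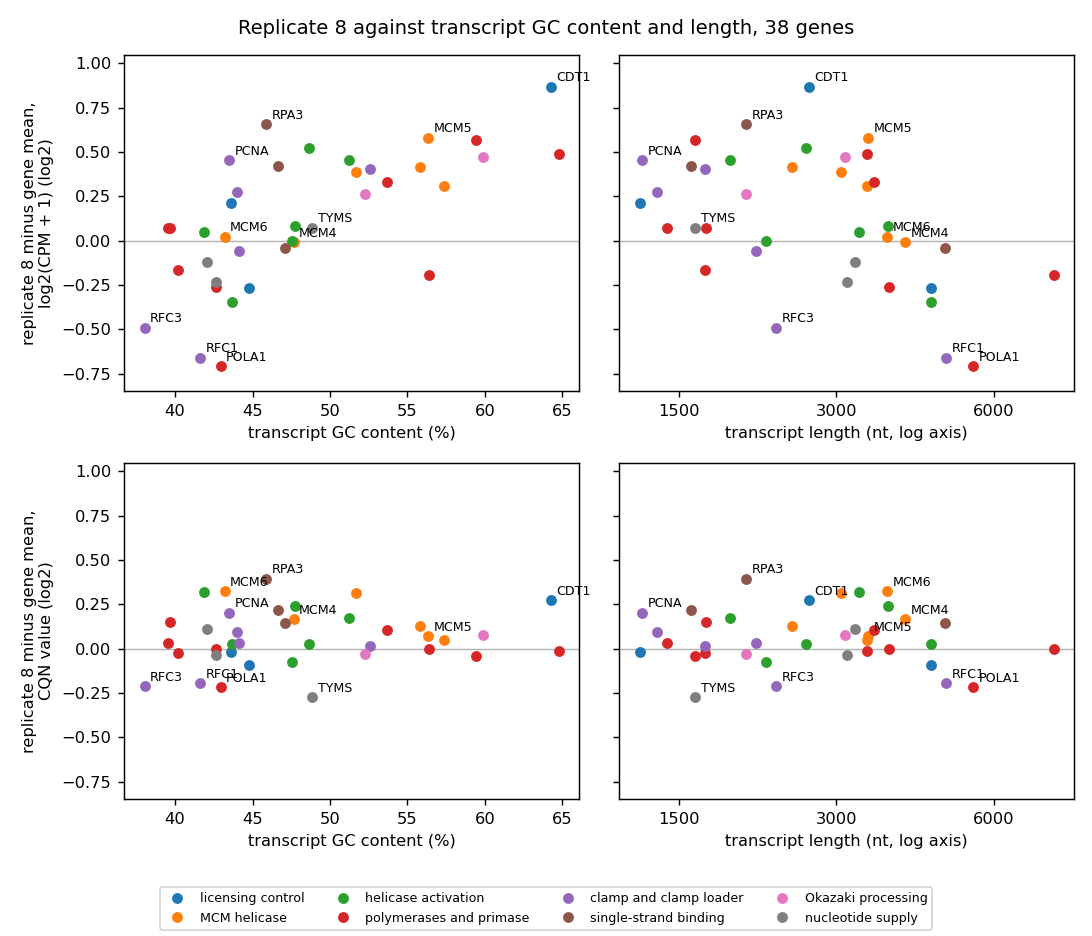
Difference of replicate 8 from each gene's mean over libraries against transcript GC content (left) and transcript length on a log axis (right) for the 38 genes, coloured by role, on log2(CPM + 1) above and on CQN below. In CPM the difference runs from -0.71 (POLA1) to 0.87 (CDT1) and is higher for GC-rich transcripts, with r of 0.66 for GC content, while on CQN r is 0.12.

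The authors' normalisation did not make every member flatter. The SD over libraries was smaller on CQN than on log2(CPM + 1) for 27 of 38 members, beside 68.7% of all detected genes. MCM6, which spanned 128 to 142 CPM, had CQN values of 7.76 and 7.83 in replicates 2 and 8 and of 7.35 to 7.47 in the other 6. GINS1, which spanned 77.05 to 95.7 CPM, had 7.35 and 7.26 in those libraries and 6.73 to 7.11 in the other 6. On CQN the highest library was replicate 8 for 11 members, replicate 2 for 11 and replicate 7 for 7, beside 27.5%, 13.5% and 15% of all detected genes, and replicate 8 was the lowest for 5, beside 23.5%. Of the 38 members, 26, 22 and 24 lay above their own mean in replicates 2, 7 and 8 on CQN, and between 6 and 19 in each of the other libraries. Over all detected genes the shares above their own mean were 53.3%, 50.9% and 53.2% in replicates 2, 7 and 8, and 46.3% to 49.7% in the others. Of the 6 genes of the MCM ring, 6 were above their mean in replicate 8, 5 in replicate 2, 2 in replicate 7 and 0 to 3 in the others. Of 8 genes of mitosis (MKI67, TOP2A, CDK1, CCNB1, PLK1, BUB1, AURKA and AURKB) the median difference on CQN was -0.20 and -0.17 in replicates 7 and 8. It was 0.09 in replicate 2 and -0.03 to 0.12 in replicates 1 and 3 to 6. The 8 genes were split in replicate 8, where 3 (CDK1, CCNB1 and AURKB) lay above their own mean, beside 1 in replicate 7 and 5 in replicate 2. The part of cell-cycle state in these differences was not tested.

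The rest of the pathway was read from a list of 85 further genes of origin recognition, firing, fork protection, chromatin assembly, nucleotide synthesis and E2F control, of which 84 were detected. E2F5, a factor that works with the pocket proteins, was not, at a mean of 0.296 CPM. Of the 84, 2 varied above the edgeR trend, POLD4 and RBL1, beside 4.66% of all detected genes. RBL1, which encodes p107, a repressor of E2F target genes, had 80.1, 25.6, 84.1, 76.6, 75.3, 71.0, 62.8 and 15.8 CPM (edgeR adjusted p = 2.24e-04). Replicates 8 and 2 lay below every other library, of which the lowest was replicate 7. Its SD on CQN was 0.66, its edgeR adjusted p was 2.25e-06 with length and GC trends removed and 1 without replicates 2 and 8. POLD4, the smallest subunit of polymerase delta, had 26.9, 53.7, 21.8, 24.1, 25.6, 26.4, 34.9 and 67.9 CPM (edgeR adjusted p = 0.0407), highest in the same 2 libraries. It lost this call when any 1 replicate other than 7 was left out (edgeR adjusted p of 0.0596 to 0.170), without TMM scaling (0.0572), without the low-count filter (0.0530), with length trends removed (0.312) and with length and GC trends removed (1).

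By subgroup, the genes with the highest CPM, a scale that favours long transcripts, are given by their values, and per length some of them are not the highest. For origin licensing they were MCMBP, which binds the MCM ring outside chromatin, at 183 ± 24.2 CPM, and the origin recognition subunits ORC4 and ORC3 at 79.0 ± 21.2 and 69.1 ± 7.62 CPM. For firing they were cyclin A2 (CCNA2) at 214 ± 27.1 CPM, TOPBP1 at 147 ± 39.6 and CDK2 at 119 ± 4.00, and at the fork CLSPN at 137 ± 34.8, TIMELESS at 129 ± 11.5 and CHTF8 at 112 ± 12.1. TOPBP1 and CLSPN, with transcripts of 5761 and 8512 nt, were lowest in replicate 8, at 84.6 and 79.3 CPM, whereas CDK2 stayed between 114 and 126 CPM. Behind the fork, the histone chaperone NASP was at 305 ± 34.9 CPM, CHAF1A at 128 ± 18.4 and ASF1B at 115 ± 27.3, and TOP1, POLE3 and RNASEH2A were at 151 ± 37.7, 138 ± 14.4 and 75.2 ± 26.0. Thymidine kinase TK1 of the pyrimidine group was at 263 ± 91.4 CPM, with 433 CPM in replicate 8 and 373 in replicate 2 against 189.9 to 273 in the other 6, and an SD of 0.06 on CQN. MTHFD1 of folate metabolism was at 169.7 ± 15.2 CPM. PAICS, IMPDH2 and GART of purine synthesis were at 364 ± 36.6, 241 ± 44.1 and 154 ± 14.8 CPM. SAMHD1, which degrades deoxynucleotides, was at 289.9 ± 54.0 CPM, highest in replicate 1 at 387. NME2 and NME1, which phosphorylate nucleoside diphosphates and overlap a listed readthrough gene, were at 88.4 ± 15.9 and 73.7 ± 24.4. In the E2F and RB group, TFDP1, a DNA-binding partner of E2F factors, was at 209.7 ± 17.5 CPM, RB1, the retinoblastoma protein, at 152 ± 49.0 CPM and E2F4 at 93.6 ± 15.1 CPM. RB1 was lowest in replicates 8, 2 and 7, at 79.6, 94.5 and 113 CPM, with 157 to 199 CPM in the other 5. Per length the order differs: ORC6, at 30.2 RPKM, was above ORC4 at 12.1, CHTF18, at 18.3, was above CLSPN at 16.0, and IMPDH2, at 146, was above PAICS at 57.1.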

How the data were processed

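Polyadenylated RNA of 8 hCMEC/D3 samples was sequenced, and the submitters' processing notes name CASAVA 1.9, TopHat2 2.0.6, HTSeq and the genome build hg19. The authors deposited 1 table with raw counts and CQN values per gene and library, per the file headers. The deposited counts are whole numbers that were not normalised, and all 186768 were even, so intervals use counts divided by 2, called read pairs here, and cover counting error only. The deposited log2 values come from the authors' conditional quantile normalisation, whose settings, like the annotation and the use of strand in counting, are not given in the sources used here. Each library's columns were matched by replicate number, and 0 other per-sample columns were present. Raw counts summed to 69388544 to 90205244 per library.

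CPM values were computed with TMM-scaled library sizes (edgeR 4.0.16, R 4.3.3), and a gene was called detected at 1 CPM or more in all 8 libraries. RPKM used the length of the canonical transcript in GENCODE 44 lifted to GRCh37, matched by symbol for 17954 genes and by synonym for 1992. Table starts were 1 less than the annotation for 4523 of these genes and equal for 623, so coordinates were read as counting from 0 and are printed 1-based. Variation was tested with edgeR's goodness-of-fit test around the trended dispersion on raw counts, with Benjamini-Hochberg adjustment over all detected genes; the script was tested on simulated data. Pairs of members were compared on log2(RPKM + 0.1) by a two-sided exact sign-flip permutation test over the 8 libraries, adjusted over 29 pairs. Fold values between libraries are on CPM, or on 2 to the power of the CQN difference. Length and GC trends were removed per library by a lowess fit with a span of 0.3. DESeq2 1.42.0 gave size factors and another dispersion trend. Other normalisations, filters, scales, pseudocounts and sets of libraries were tried as alternatives.

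All 38 members are named, with 8 values for MCM2 to MCM7, PCNA, RRM1, RRM2, TYMS, CDT1, GMNN and CDC6. Of the other pathway genes, the 3 with the highest mean CPM in each subgroup, those above the trend and those not detected are named, except 1 gene that is not reported here. The members, lists and tests were chosen with earlier results of these data known. The members MCM7, PCNA, RFC2, RFC4, POLA1, TYMS, LIG1 and RPA3 overlap another listed gene, and FEN1, PCNA, POLD2, RFC3, RFC5, RPA2, RPA3, RRM2 and TYMS have named pseudogenes, so reads of these genes may have been shared or lost in counting.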

Additional observations from a re-analysis of the deposited data

Results flagged for a closer look

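Of 96 sets of 8 values (38 members, 29 pathway genes and 29 pairs), 1 held a library far from the others, where chance alone gives about 1 in 20. It was the log2 ratio of GINS2 to GINS1 in RPKM, at 0.084 in replicate 8, above the next highest of -0.32 and the lowest of -0.59. The gap was 0.595 of the whole range, above Dixon's 95% critical value for 8 samples. In that library GINS2 was at its highest, 73.6 CPM, and GINS1 was at 87.5 CPM, within its range of 77.05 to 95.7 CPM. On CQN replicate 8 was not the highest for this ratio, with GINS2 at 6.74 below GINS1 at 7.26. The 1 library with GINS2 above GINS1 on CQN was replicate 6, at 6.775 against 6.769.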

How the results depend on the processing

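All 38 members were detected under every alternative tried. The members above the variation trend numbered 1 (CDT1) with the DESeq2 trend and 1 (CDT1) with length trends removed, and 0 under the other alternatives. The pathway genes above the trend are given with the share of all tested genes in brackets. Of 84, 2 passed in the main setting (4.66%), 18 with the DESeq2 trend (23.5%) and 4 with length trends removed (5.31%). With length and GC trends removed, a setting chosen after seeing the data, 4 passed (6.79%), and without the low-count filter 1 did (3.28%). They numbered 1 to 2 with 1 replicate left out (3.15% to 4.09%) and 1 without replicates 2 and 8 (2.75%). In that last setting the gene was NME1, and RBL1 had an edgeR adjusted p of 1. The cause was not tested. Of the 29 pairs, 0 passed without replicates 2, 7 and 8, since 5 libraries cannot give an exact permutation p below 0.0625. The members' median SD without those 3 was 0.050, beside 0.092 for all detected genes, and members lowest in replicate 8 numbered 5 on CQN. On log2(CPM + 0.1), which leaves out the length correction, the mean ratio changed sign for CDC6/CDT1 (0.49), PRIM1/POLA1 (-0.50), POLE/POLD1 (0.52), RFC2/RFC1 (-0.59), RFC3/RFC1 (-0.72), RFC4/RFC1 (-0.66), RFC5/RFC1 (-1.13) and RPA2/RPA1 (-1.32). On CQN it did so for MCM5/MCM2 (0.23), CDC6/CDT1 (0.049), GMNN/CDT1 (-0.0098), RFC3/RFC1 (-0.21), RFC5/RFC1 (-0.36) and RPA2/RPA1 (-0.61), without replicates 2, 7 and 8 for CDC6/CDT1 (0.15) and RFC5/RFC1 (-0.15), and without replicate 8 for RFC5/RFC1 (-0.0068, with 0.12 as the highest value when another replicate was left out). No paired analysis was possible because all 8 samples belong to 1 group. The lowest member held 878 read pairs. RPKM rests on 1 transcript per gene, and a share of reads from other transcripts would move a ratio between genes.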
